A study of Mus musculus with 9 samples.

Results

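Genes that mark or serve regulatory T cells, namely Foxp3, Ikzf2, Ikzf4, Itgae, Il2ra, Tnfrsf18, Nrp1, Lrrc32 and Il10, were followed through RNA-seq of lymph nodes from melanocyte oncogene mice. They were picked by gene symbol, each symbol stood on 1 entry, and they were 9 of the 37801 gene entries used. The series held 9 libraries in 3 groups of 3. WT libraries were labelled FVB/NJ and wild type for MHCII and NRAS. Tyr-NrasQ61K libraries came from FVB/NJ crosses in which the tyrosinase promoter drives NrasQ61K, and so puts it in the pigment lineage, with MHC class II intact and labelled as negative for Cre. Tyr-NrasQ61K MHCII-KO libraries came from the same transgenic cross, labelled as positive for Cre and as MHCII knockout. Cre and MHCII labels change together between the transgenic groups, so Cre and the knockout cannot be told apart. The cell type that expresses the Cre, the deleted MHCII gene and the ages of the mice were not stated in the sources read. The methods describe WT controls as albino littermates without the transgene, whereas the labels give FVB/NJ for WT and an FVB/NJ cross for both transgenic groups, and these sources do not settle whether the groups shared a background. If they did not, strain and transgene cannot be told apart.

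Regulatory T cells are CD4+ T cells that restrain other lymphocytes. Their identity rests on the forkhead factor Foxp3, and many of them express the Ikaros-family factors Helios (Ikzf2) and Eos (Ikzf4). They carry the high-affinity IL-2 receptor chain (Il2ra), GITR (Tnfrsf18), neuropilin-1 (Nrp1) and, on tissue-homing cells, the integrin CD103 (Itgae); they display latent TGF-β on GARP (Lrrc32) and some secrete IL-10 (Il10). Of these genes Foxp3 alone is nearly restricted to regulatory T cells. Activated T cells also express Il2ra and Tnfrsf18, CD8 T cells and a class of dendritic cells express Itgae, vessel and plasmacytoid dendritic cells express Nrp1, and platelets and endothelium express Lrrc32.

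Upstream sequence was available for 4 of the 9 genes and is shown for the 3 with a window that held no annotated exon of the gene: Foxp3, the lineage factor, and Il2ra and Nrp1, whose levels were lower on average in both transgenic groups. Each is the stretch of 250 bases before a RefSeq transcription start in GRCm38.p6, + strand, and capitals mark matches, on either strand, to the NFAT core GGAAA or the STAT5 site TTCNNNGAA. Foxp3 is at chrX:7580233-7580482, Il2ra at chr2:11642542-11642791 and Nrp1 at chr8:128358823-128359072. Foxp3 had another window, before a start farther upstream, at chrX:7579426-7579675. That window overlapped annotated exons of the gene and is not shown, and it held 1 NFAT match and 0 STAT5 matches.
Foxp3: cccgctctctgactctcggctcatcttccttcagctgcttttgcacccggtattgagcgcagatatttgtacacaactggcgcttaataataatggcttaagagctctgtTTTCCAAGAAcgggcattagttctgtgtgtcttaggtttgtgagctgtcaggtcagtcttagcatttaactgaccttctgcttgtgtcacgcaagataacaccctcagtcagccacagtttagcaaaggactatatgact
Il2ra: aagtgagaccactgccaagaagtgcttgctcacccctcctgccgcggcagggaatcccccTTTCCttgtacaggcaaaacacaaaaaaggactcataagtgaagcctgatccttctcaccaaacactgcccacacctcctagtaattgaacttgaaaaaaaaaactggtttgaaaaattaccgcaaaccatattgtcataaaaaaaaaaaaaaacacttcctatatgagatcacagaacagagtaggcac
Nrp1: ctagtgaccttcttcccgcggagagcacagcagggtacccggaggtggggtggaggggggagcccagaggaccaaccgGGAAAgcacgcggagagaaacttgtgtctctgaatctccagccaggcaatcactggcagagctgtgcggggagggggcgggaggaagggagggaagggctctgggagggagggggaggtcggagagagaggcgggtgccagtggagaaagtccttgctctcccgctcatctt
The Foxp3 window shown, before the downstream start, held 1 STAT5 match and 1 NFAT match, which overlap, and the Il2ra and Nrp1 windows held 1 NFAT match each. No window held the forkhead site GTAAACA. Of all 32851 windows of this length, 7.02% held the STAT5 site, 55.6% the NFAT core and 3.17% the forkhead site, so an NFAT match is common.

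The values are FPKM, read fragments scaled to transcript length and library size, which allow levels to be compared between genes. A gene was tested where it reached an FPKM of 1 in at least 3 of the 9 libraries, and 16587 genes did. Fold changes are differences of log2(FPKM + 1) from limma, a scale that understates changes of genes near 1 FPKM, and calls needed an adjusted p (Benjamini-Hochberg, over all genes tested) no higher than 0.05. Of the 9 members 8 passed the filter and Il10 did not. Replicate 2 of both transgenic groups lay away from the rest on the first principal component, at 101.9 and 78.6 against -74.1 to 21.8 for the others, and Tyr-NrasQ61K replicate 3 did so on the second. The read depth of these replicate 2 libraries was the lowest that could be estimated, 0.754 and 0.871 of that of WT replicate 1. The labels name nevus melanocytes as the source, whereas 10 B cell genes summed to 722 to 2729 FPKM and 11 melanocyte genes to 11.6 to 25.1. The pigment cell enzyme Dct was at no more than 0.0508 FPKM in any WT library, at 2.77 to 5.81 in those of Tyr-NrasQ61K and at 0.847 to 3.25 in MHCII-KO. The class II gene H2-Ab1 was at 108 to 271 FPKM in MHCII-KO nodes, 101 to 183 in WT and 149 to 276 in Tyr-NrasQ61K nodes, and these overlapping levels do not check the knockout label.

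None of the 8 tested members was called in Tyr-NrasQ61K against WT, where 0.235% of all genes were. None was called in MHCII-KO against WT either, where 0.145% of all genes were, nor in MHCII-KO against Tyr-NrasQ61K, where 0.0482% were. At an unadjusted p under 0.05, 1 member was higher and 2 were lower in Tyr-NrasQ61K than in WT, against 6.79% and 8.43% of all genes. The 1 higher was Ikzf4, which passed the filter mainly through the Tyr-NrasQ61K libraries where it is high. In MHCII-KO against WT 0 members were higher and 3 lower, against 3.57% and 11.5%, and in MHCII-KO against Tyr-NrasQ61K 0 of either, against 0.235% and 1.28%. The members' median log2 fold change was -0.44 in Tyr-NrasQ61K and -0.62 in MHCII-KO against WT, beside medians of -0.12 and -0.22 over all genes tested. Both comparisons use the same 3 WT libraries. In simulated data of this design 12% of genes changed by 1 on the log2 scale and 62% of those changed by 2 were called, so changes of the size measured here would mostly be missed.

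**Figure D1:**
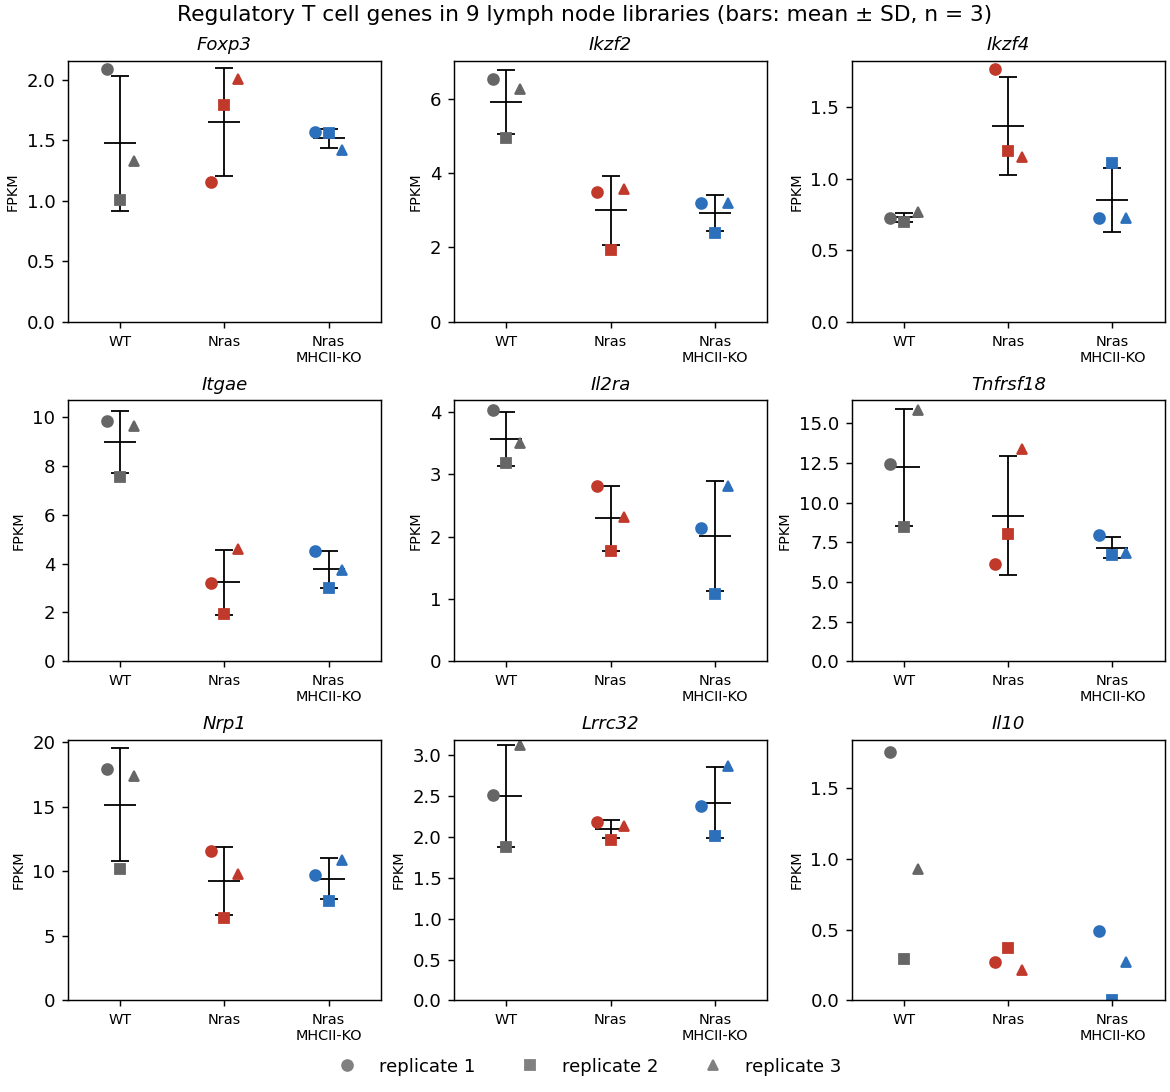
FPKM of the 9 genes (vertical axes, each from 0) in the 3 WT, 3 Tyr-NrasQ61K (Nras) and 3 Tyr-NrasQ61K MHCII-KO libraries, where points are libraries with a marker for each replicate number and bars are the mean ± SD (n = 3, not drawn for Il10, which is listed at 0 in 1 library). Ikzf2, Itgae and Il2ra were lower in all 6 transgenic libraries than in every WT library, while the Foxp3 values of the 3 groups overlapped. Of all genes tested, 10.5% were lower without overlap in Tyr-NrasQ61K and 23.4% in MHCII-KO than in WT.

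Foxp3 (chrX:7573644-7595245 in GRCm38, + strand), the factor that defines the lineage, was low in every library. It was at 2.09, 1.01 and 1.33 FPKM in WT, 1.15, 1.80 and 2.01 in Tyr-NrasQ61K, and 1.57, 1.56 and 1.42 in MHCII-KO libraries. The highest and the lowest of the 9 values were both WT, and the groups overlapped in each comparison. The means were 1.48 ± 0.557 (SD, n = 3), 1.65 ± 0.445 and 1.52 ± 0.0797 FPKM. The log2 fold change against WT was 0.11 in Tyr-NrasQ61K (95% interval -0.37 to 0.59, adjusted p = 0.789) and 0.05 in MHCII-KO nodes (-0.43 to 0.52, adjusted p = 0.911). The sign rested on WT replicate 2, the lowest library, without which the values were -0.03 and -0.09. The other members of the FOXP subfamily, Foxp1, Foxp2 and Foxp4, were not called in any comparison, and Foxp1, a factor of naive T and B cells, was the most abundant of them, at 56.5 to 84.4 FPKM in WT.

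Ikzf2 (chr1:69531214-69687245, - strand), which encodes Helios, was lower in transgenic nodes, without a call. It was at 6.54, 4.94 and 6.27 FPKM in WT, 3.49, 1.94 and 3.57 in Tyr-NrasQ61K, and 3.20, 2.38 and 3.20 in MHCII-KO libraries. Every transgenic library lay below every WT library, with group means at 50.7% and 49.5% of the WT mean. The log2 fold changes were -0.81 ± 0.22 (SE, adjusted p = 0.222) and -0.82 ± 0.22 (adjusted p = 0.280). Of all genes tested, 10.5% were lower without overlap in Tyr-NrasQ61K and 23.4% in MHCII-KO than in WT, so such a separation was common. In bulk nodes, fewer cells that express a gene and less RNA per cell cannot be told apart.

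Ikzf4 (chr10:128630843-128645991, - strand), which encodes Eos, a partner of Foxp3 in gene silencing, was higher in the Tyr-NrasQ61K nodes, without a call. It was at 0.724, 0.700 and 0.764 FPKM in WT, 1.76, 1.19 and 1.15 in Tyr-NrasQ61K, and 0.723, 1.11 and 0.723 in MHCII-KO libraries. All 3 Tyr-NrasQ61K values lay above all WT values and above all MHCII-KO values. A higher level without overlap was seen for 8.18% of all genes in Tyr-NrasQ61K against WT, and a lower level without overlap for 3.07% in MHCII-KO against Tyr-NrasQ61K. The log2 fold change against WT was 0.45 ± 0.17 (SE, adjusted p = 0.316) in Tyr-NrasQ61K and 0.09 (adjusted p = 0.772) in MHCII-KO nodes, where it became -0.0048 without MHCII-KO replicate 2. Ikzf4 passed the filter only through 3 Tyr-NrasQ61K libraries and 1 MHCII-KO library, since no WT value reached 1 FPKM, so it was tested because it was high there. The 3 further Ikaros-family genes measured, Ikzf1, Ikzf3 and Ikzf5, were not called, and Ikzf1, the family's founding member in lymphocytes, had a log2 fold change of -0.17 and -0.36 against WT.

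Il2ra (chr2:11642807-11693193, + strand) encodes CD25, which lets regulatory T cells capture IL-2. Its values were 4.04, 3.18 and 3.51 FPKM in WT, 2.81, 1.77 and 2.31 in Tyr-NrasQ61K, and 2.15, 1.07 and 2.81 in MHCII-KO libraries. All 6 transgenic values lay below the WT values, a separation seen for 10.5% of all genes in Tyr-NrasQ61K and 23.4% in MHCII-KO. The log2 fold changes were -0.48 ± 0.25 (SE, adjusted p = 0.351) and -0.64 ± 0.25 (adjusted p = 0.329). Of 11 other IL-2 pathway genes 10 were tested and 0 were called, 0 also at an unadjusted p under 0.05, with medians of -0.15 and -0.23 against WT. Stat5a, a transcription factor downstream of the receptor, had the smallest p of these in Tyr-NrasQ61K nodes, with a log2 fold change of -0.37 (adjusted p = 0.343). Il2rg, the shared receptor chain, was at -0.30 and -0.37. Il2, the cytokine itself, failed the filter and is named after its values were seen: it was at 0.971, 0.967 and 1.05 FPKM in WT, 0.434, 0.430 and 0.630 in Tyr-NrasQ61K, and 0.479, 0.556 and 0.513 in MHCII-KO libraries.

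Tnfrsf18 (chr4:156026164-156028895, + strand), which encodes the costimulatory receptor GITR, had the largest standard error of the members. It was at 12.4, 8.45 and 15.8 FPKM in WT, 6.13, 8.01 and 13.4 in Tyr-NrasQ61K, and 7.94, 6.71 and 6.82 in MHCII-KO libraries. The MHCII-KO values lay below all WT values, as for 23.4% of all genes, whereas the Tyr-NrasQ61K values overlapped with WT through replicate 3. The log2 fold changes were -0.40 ± 0.31 (SE, adjusted p = 0.486) and -0.66 ± 0.31 (adjusted p = 0.331). Its ligand Tnfsf18 was below 0.3 FPKM in every library and was not tested.

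Nrp1 (chr8:128358604-128503363, + strand), a semaphorin and VEGF co-receptor, was the most abundant member in every library on the FPKM scale except 2 of Tyr-NrasQ61K, where Tnfrsf18 was higher. Its values were 18, 10.1 and 17.4 FPKM in WT, 11.6, 6.38 and 9.77 in Tyr-NrasQ61K, and 9.74, 7.73 and 10.9 in MHCII-KO libraries. WT replicate 2 lay within the transgenic range, so the groups overlapped. The log2 fold changes were -0.65 ± 0.29 (SE, adjusted p = 0.331) and -0.60 ± 0.29 (adjusted p = 0.337). Among 9 ligands and partner receptors of the members 7 were tested and 0 were called, with 1 higher in each comparison with WT and 1 and 2 lower at an unadjusted p under 0.05. Over all genes, 6.79% and 3.57% were higher and 8.43% and 11.5% lower at that level. Plxna1, a plexin that signals with Nrp1, was higher in all transgenic libraries, at 14.7 to 18 FPKM with MHCII intact and 12.4 to 19.1 with it deleted, against 4.33 to 7.00 in WT (log2 fold changes 1.31 and 1.24, adjusted p = 0.10 and 0.151). Vegfa, a ligand of Nrp1, was at -0.49 and -0.53 (adjusted p = 0.316 and 0.329). Of the marker genes of other cells that express Nrp1, 11 of 12 endothelial genes were below 0 in both comparisons and their summed level in FPKM was 117 to 218 (WT), 72.5 to 144 (Tyr-NrasQ61K) and 83.3 to 121 (MHCII-KO). The sum of 7 plasmacytoid dendritic cell genes was 114 to 182, 57.5 to 150 and 75.7 to 119 FPKM. No marker of either list was at 0, and the part of these cells in the Nrp1 values was not tested.

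Itgae (chr11:73090583-73147446, + strand), the integrin α chain that pairs with Itgb7 to bind E-cadherin, had the largest log2 fold change of FPKM + 1 of the 8 tested members in both WT comparisons. It was at 9.83, 7.54 and 9.65 FPKM in WT, 3.22, 1.92 and 4.59 in Tyr-NrasQ61K, and 4.52, 3.01 and 3.76 in MHCII-KO libraries. The highest transgenic value was below the lowest WT value, and the group means were 36% and 41.8% of the WT mean. Of all genes, 10.5% in Tyr-NrasQ61K and 23.4% in MHCII-KO were lower than WT without overlap. The log2 fold change was -1.28 (95% interval -1.87 to -0.69, adjusted p = 0.141) in Tyr-NrasQ61K and -1.07 (-1.67 to -0.48, adjusted p = 0.240) in MHCII-KO nodes. The first was past the threshold when libraries were scaled by median ratios (adjusted p = 0.0333), within a range of 0.00218 to 0.489 over 17 alternatives. Its partner Itgb7 was at 40.4, 33.1 and 45.5 FPKM in WT, 25, 32.3 and 32.3 in Tyr-NrasQ61K and 32.9, 27.8 and 30.2 in MHCII-KO libraries (log2 fold changes -0.39 and -0.37, adjusted p = 0.378 and 0.390).

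Most marker genes of CD8 T and NK cells and of dendritic cells, some of which carry CD103, were below 0 against WT, like Itgae. The medians over all genes tested were also below 0, at -0.12 and -0.22. All 13 genes of CD8 T and NK cells were below 0 in both comparisons, with 0 called. At an unadjusted p under 0.05, 4 and 2 of the 13 were lower, beside 8.43% and 11.5% of all genes. Their summed levels in FPKM were 147 to 223 (WT), 67.1 to 161 (Tyr-NrasQ61K) and 76.1 to 146 (MHCII-KO). Of 11 tested genes of CD103+ and other dendritic cells 10 were below 0 in both, and the sum over the 12 measured in FPKM was 98.3 to 150 (WT), 54.6 to 103 (Tyr-NrasQ61K) and 61.8 to 75.7 (MHCII-KO). The 1 called gene among them was Ccl17, a chemokine of mature dendritic cells that draws CCR4+ T cells, with log2 fold changes of -2.12 (adjusted p = 0.0173) and -2.53 (adjusted p = 0.00821). Ccl17 reached 1 FPKM only in the WT libraries and in Tyr-NrasQ61K replicate 3, so it passed the filter mainly through WT, where it is high. It was listed at 0 in MHCII-KO replicate 2, and no other gene of either list was at 0 in any library. The part of these cells in the Itgae values was not tested.

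Lrrc32 (chr7:98489283-98502181, + strand), which encodes GARP, the surface anchor of latent TGF-β, overlapped between groups throughout. It was at 2.52, 1.87 and 3.12 FPKM in WT, 2.19, 1.97 and 2.13 in Tyr-NrasQ61K, and 2.38, 2.01 and 2.87 in MHCII-KO libraries. The log2 fold changes were -0.16 (95% interval -0.58 to 0.25, adjusted p = 0.628) and -0.03 (-0.44 to 0.39, adjusted p = 0.941). The second turned to 0.18 with median-ratio scaling, to 0.13 with quantile normalization, to 0.10 without WT replicate 3 and to 0.06 without MHCII-KO replicate 2. Of 16 tested TGF-β pathway genes 0 were called, and 1 higher and 1 lower in each comparison with WT had an unadjusted p under 0.05. Over all genes, 6.79% and 3.57% were higher and 8.43% and 11.5% lower at that level. Tgfb1, the cytokine held by GARP, was higher in all transgenic libraries, at 17.3 to 33.2 and 21.0 to 29.6 FPKM against 11.4 to 16.4 in WT (log2 fold changes 0.79 and 0.86, adjusted p = 0.310 and 0.329). Itgb8, the integrin chain that frees TGF-β from the cell surface, was lower in all of them, at 0.402 to 0.610 and 0.280 to 0.830 FPKM against 1.11 to 1.34 (log2 fold changes -0.60 and -0.53, adjusted p = 0.253 and 0.329). Itgb8 reached 1 FPKM only in the WT libraries, so it was tested because it was high there. Without overlap, 8.18% and 7.97% of all genes were higher and 10.5% and 23.4% lower than in WT.

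Il10 (chr1:131019845-131024974, + strand), the suppressive cytokine, was too low to test. It was listed at 1.76, 0.292 and 0.930 FPKM in WT, 0.270, 0.369 and 0.214 in Tyr-NrasQ61K, and 0.489, 0 and 0.275 in MHCII-KO libraries. WT replicate 1 alone was above 1 FPKM, and WT replicate 2 lay within the transgenic values. Of the 8 genes of the IL-10 pathway 8 were tested and 0 called. At an unadjusted p under 0.05, 0 and 1 were lower against WT, beside 8.43% and 11.5% of all genes. Maf, a factor that drives Il10 transcription, had log2 fold changes of -0.59 and -0.65 (adjusted p = 0.331 and 0.329).

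**Figure D2:**
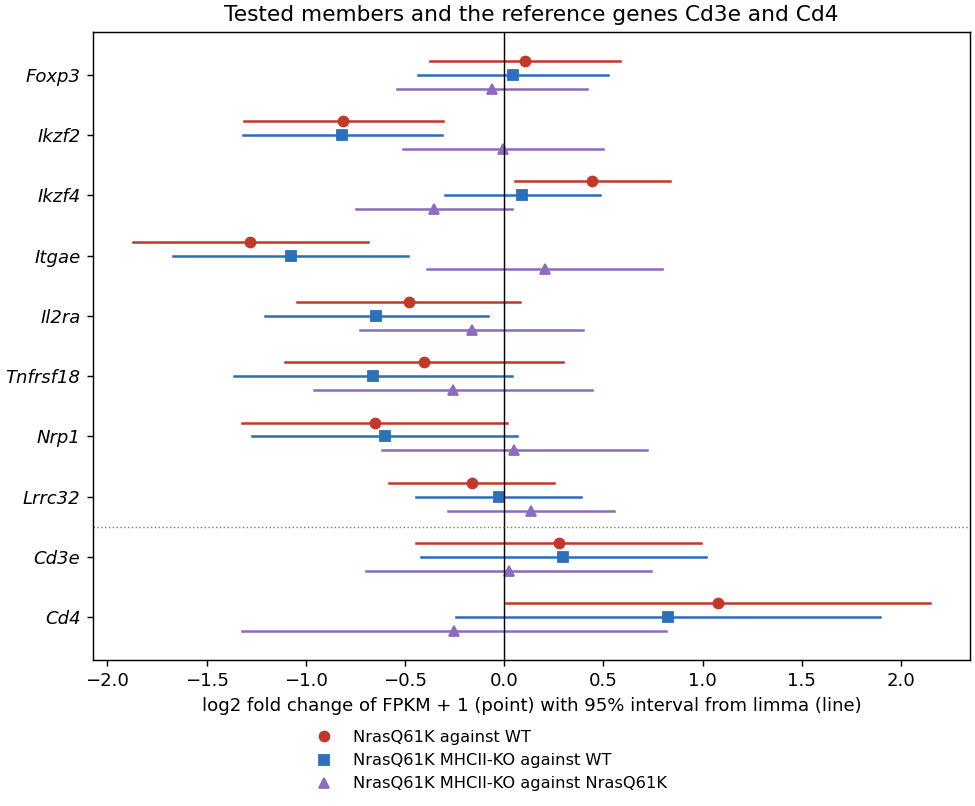
Log2 fold changes of FPKM + 1 (horizontal axis) of the 8 tested members, and below the dotted line of Cd3e and Cd4, with lines for the 95% limma interval, in the 3 comparisons. Itgae and Ikzf2 lay farthest below 0 in both comparisons with WT, Foxp3 near 0 in all 3, and Cd4 above 0 in both comparisons with WT (1.08 and 0.83).

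No member was called between the transgenic groups, where 0.0482% of all genes were. Between MHCII-KO and Tyr-NrasQ61K nodes the log2 fold changes ran from -0.35 for Ikzf4 to 0.20 for Itgae, each with an adjusted p of 0.9999. The 95% interval was -0.54 to 0.42 for Foxp3 and -0.51 to 0.50 for Ikzf2, so differences of either sign within those bounds cannot be told from 0 with 3 libraries a group. Ikzf4, which passed the filter mainly through the Tyr-NrasQ61K libraries where it is high, was the 1 member whose values did not overlap, beside 3.07% of all genes lower and 0.729% higher without overlap.

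The members did not vary as 1 block. Over the 9 libraries, Pearson's r of log2(FPKM + 1) was 0.97 between Ikzf2 and Itgae, 0.93 between Ikzf2 and Nrp1 and 0.87 between Ikzf2 and Il2ra. Foxp3 ranged from -0.15 with Il2ra to 0.40 with Tnfrsf18. These r describe libraries that differ in group and depth. Among 12587 genes compared, those most like Ikzf2 were Sdpr, Serpinb6b, Ndrg2, AW112010 and Gucy1a2 (r = 0.99 for each), those most like Itgae were Net1 (0.99), Tgtp1, Hspa12a, Epsti1 and Cks2 (0.98 for each), and those most like Foxp3 were Ciao1 (0.97), Dapk3 (0.95), Casp9 (0.94), Fchsd1 (0.93) and Fiz1 (0.90). No other regulatory T cell gene was among the genes most like Foxp3.

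Cd4, the coreceptor of helper and regulatory T cells, served as the reference for these genes and was itself higher on average in the transgenic nodes. It was at 59.0, 30.4 and 59.7 FPKM in WT, 106, 56.0 and 176 in Tyr-NrasQ61K, and 91.4, 63.8 and 105 in MHCII-KO libraries. The MHCII-KO values lay above all WT values, as for 7.97% of genes, while Tyr-NrasQ61K replicate 2 overlapped with WT. Its log2 fold changes of 1.08 (adjusted p = 0.328) and 0.83 (adjusted p = 0.370) did not pass the threshold. Of 21 T cell identity genes, Cd4 among them, 17 in Tyr-NrasQ61K and 16 in MHCII-KO nodes were below 0, with 0 called. Their medians were -0.39 and -0.42, beside -0.12 and -0.22 over all genes tested. At an unadjusted p under 0.05, Cd4 was the 1 gene of the list that was higher and 6 were lower in Tyr-NrasQ61K, beside 6.79% and 8.43% of all genes. In MHCII-KO nodes 0 were higher and 5 lower, beside 3.57% and 11.5%. Ccr7, the lymph node homing receptor, was at -0.83 and -0.77, Cd3d, a chain of the T cell receptor complex, at -0.88 and -0.74, and Cd3e, another such chain, at 0.27 and 0.30. Cd4 per 100 FPKM of Cd3e was 609, 216 and 462 in WT, 941, 419 and 811 in Tyr-NrasQ61K and 592, 588 and 516 in MHCII-KO libraries. Macrophages and dendritic cells can express Cd4 as well, and their part in its level was not tested.

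Divided by Cd4, most members were lower on average in the transgenic nodes, as were most genes: relative to Cd4, 57.5% of all genes were lower without overlap in Tyr-NrasQ61K and 68.8% in MHCII-KO than in WT. Foxp3 per 100 FPKM of Cd4 was 3.55, 3.32 and 2.22 in WT, 1.09, 3.21 and 1.14 in Tyr-NrasQ61K, and 1.71, 2.44 and 1.35 in MHCII-KO libraries, and overlapped between groups. Itgae was 16.7, 24.8 and 16.1 in WT against 3.04, 3.43 and 2.61 and then 4.95, 4.72 and 3.57, and Ikzf2 was 11.1, 16.3 and 10.5 against 3.30, 3.47 and 2.03 and then 3.50, 3.73 and 3.04, with no overlap between WT and either transgenic group. Nrp1 per 100 FPKM of Cd4 was 30.5, 33.4 and 29.2 in WT, closer together than its FPKM, against 11, 11.4 and 5.56 and then 10.7, 12.1 and 10.3.

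In limma with log2(FPKM + 1) of Cd4 subtracted from every gene, 6 of 8 members were called lower in Tyr-NrasQ61K than in WT, as were 55.6% of all genes. These were Ikzf2 (-1.89), Itgae (-2.36), Il2ra (-1.56), Tnfrsf18 (-1.48), Nrp1 (-1.73) and Lrrc32 (-1.24), with adjusted p from 0.00236 to 0.0299. In MHCII-KO against WT 5 of 8 were called lower, as were 44.0% of all genes, namely the same genes without Lrrc32, at -1.43 to -1.90. Between MHCII-KO and Tyr-NrasQ61K 0 were called by limma, where 0.0482% of genes were. Foxp3 relative to Cd4 was at -0.97 (95% interval -2.0 to 0.06, adjusted p = 0.0932) and -0.78 (-1.81 to 0.25, adjusted p = 0.175). Without Tyr-NrasQ61K replicate 2 the first was -1.44 (adjusted p = 0.00773), but 80.4% of all genes were called in that setting. Lrrc32 lost its call when any 1 of 4 libraries was left out, replicates 2 and 3 of WT and 1 and 3 of Tyr-NrasQ61K (adjusted p from 0.060 to 0.10). In MHCII-KO against WT, 3 members were called without MHCII-KO replicate 3, where 17.2% of all genes were. The subtraction lowers every gene by the difference in Cd4, so the members' counts called relative to Cd4 are no result about these genes.

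**Figure D3:**
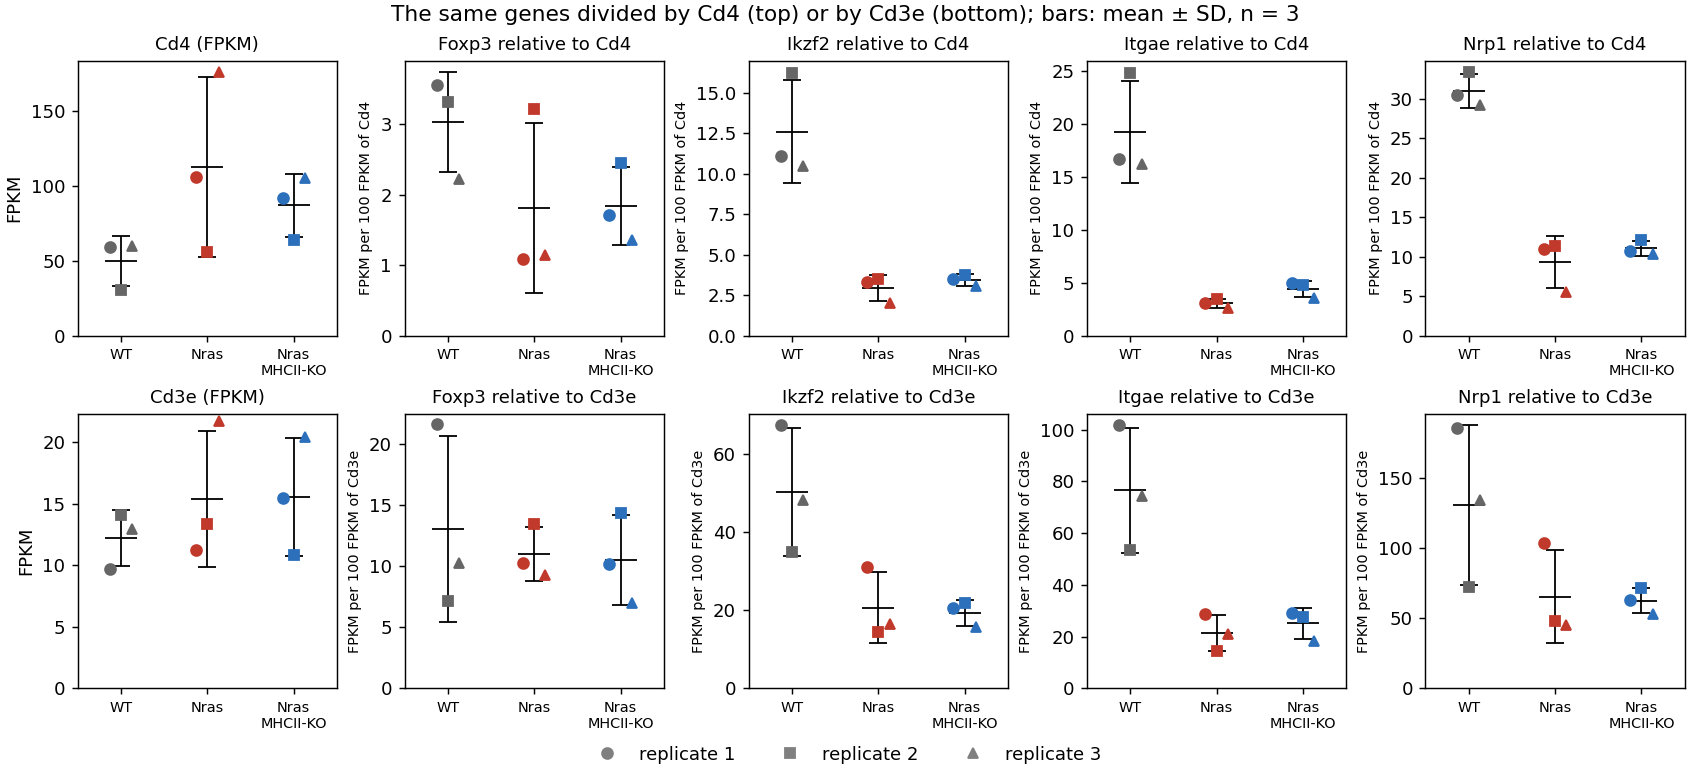
Cd4 and Cd3e in FPKM (left column) and Foxp3, Ikzf2, Itgae and Nrp1 per 100 FPKM of Cd4 (top) or Cd3e (bottom) by group, with points for libraries and bars for the mean ± SD (n = 3). Relative to Cd4, Ikzf2, Itgae and Nrp1 separated the WT libraries from all transgenic ones, as 57.5% and 68.8% of all genes did downward in the 2 comparisons, whereas relative to Cd3e Foxp3 overlapped between all groups and Nrp1 between WT and Tyr-NrasQ61K.

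Relative to Cd3e in place of Cd4, 0 of 8 members were called in either comparison with WT, where 0.0724% and 0.0663% of all genes were. Itgae was still at 102, 53.5 and 74.5 FPKM per 100 FPKM of Cd3e in WT against 28.7, 14.4 and 21.2 in Tyr-NrasQ61K and 29.3, 27.7 and 18.4 in MHCII-KO libraries, and its log2 fold changes were -1.55 (adjusted p = 0.194) and -1.37 (adjusted p = 0.212). Foxp3 was at 21.6, 7.16 and 10.3 in WT, 10.3, 13.5 and 9.26 in Tyr-NrasQ61K, and 10.1, 14.4 and 6.98 in MHCII-KO libraries. Relative to the mean log2 level of the T cell genes 0 were called again, and Foxp3 had the opposite sign, 0.53 (adjusted p = 0.30) and 0.47 (adjusted p = 0.416). The direction of Foxp3 relative to T cells thus depended on the reference gene.

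The wider set of genes known from regulatory T cells was read from a further list of 30, of which 27 were tested. None was called in any comparison. In Tyr-NrasQ61K against WT 21 were below 0 and 6 above, with a median of -0.54, and at an unadjusted p under 0.05 there were 11 lower and 1 higher (40.7% and 3.70% of the 27, beside 8.43% and 6.79% of all genes tested). At that level 6 of 21 T cell genes, 4 of 11 dendritic cell genes and 4 of 5 innate lymphoid genes were lower too, but 0 of 10 B cell genes. In MHCII-KO against WT 21 were again below 0, with a median of -0.62 and 13 lower (48.1%, beside 11.5% of all genes) and 0 higher (beside 3.57%) at that level, and in MHCII-KO against Tyr-NrasQ61K there were 0, beside 1.28% and 0.235%. Ccr8, a chemokine receptor of tissue regulatory T cells, was at 1.60, 1.48 and 1.88 FPKM in WT, 0.623, 0.424 and 0.332 in Tyr-NrasQ61K, and 0.885, 0.611 and 0.696 in MHCII-KO libraries (log2 fold changes -0.86 and -0.62, adjusted p = 0.110 and 0.267). Izumo1r, the folate receptor FR4, was at 9.17, 6.55 and 8.94 FPKM in WT, 2.83, 3.08 and 4.18 in Tyr-NrasQ61K, and 5.38, 3.20 and 3.11 in MHCII-KO libraries. Every transgenic library lay below every WT library for both genes, and the log2 fold changes of Izumo1r were -1.08 and -0.93 (adjusted p = 0.159 and 0.253). Such a separation from WT was seen for 10.5% of all genes in Tyr-NrasQ61K and 23.4% in MHCII-KO. Ccr8 reached 1 FPKM only in the WT libraries, so it was tested because it was high there.

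Ctla4, the inhibitory receptor that strips CD80 and CD86 from antigen-presenting cells, was at 8.56, 5.03 and 8.06 FPKM in WT, 2.5, 1.80 and 5.96 in Tyr-NrasQ61K, and 2.74, 1.57 and 1.35 in MHCII-KO libraries. Its log2 fold changes were -0.98 (adjusted p = 0.316) and -1.51 (adjusted p = 0.241), and Tyr-NrasQ61K replicate 3 overlapped with WT. Pdcd1, the receptor PD-1, was at -0.98 and -0.94, and Cd83, an activation marker of dendritic cells and T cells, at -1.08 and -1.39. The 1 gene higher at an unadjusted p under 0.05 was Entpd1, named after its values were seen, the ectonucleotidase CD39, also present on macrophages and vessels, at 44.9, 39.0 and 67.8 FPKM in Tyr-NrasQ61K against 26.7, 19.9 and 37.8 in WT (log2 fold change 0.83, adjusted p = 0.316). The 14 macrophage genes summed to 279 to 689 FPKM in WT and 354 to 600 in Tyr-NrasQ61K, and Vsig4 was at 0 in most libraries. These sums include Siglec1, which was listed at 37.3, 0 and 0 FPKM in WT and 17.5, 13.3 and 12.2 in Tyr-NrasQ61K. Of the 12 macrophage genes tested, Gpnmb and Trem2 were called higher in Tyr-NrasQ61K, but 7 were below 0 and 5 above, with a median of -0.27. At an unadjusted p under 0.05, 2 were higher and 4 lower, beside 6.79% and 8.43% of all genes. The part of macrophages in the Entpd1 level was not tested.

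**Figure D4:**
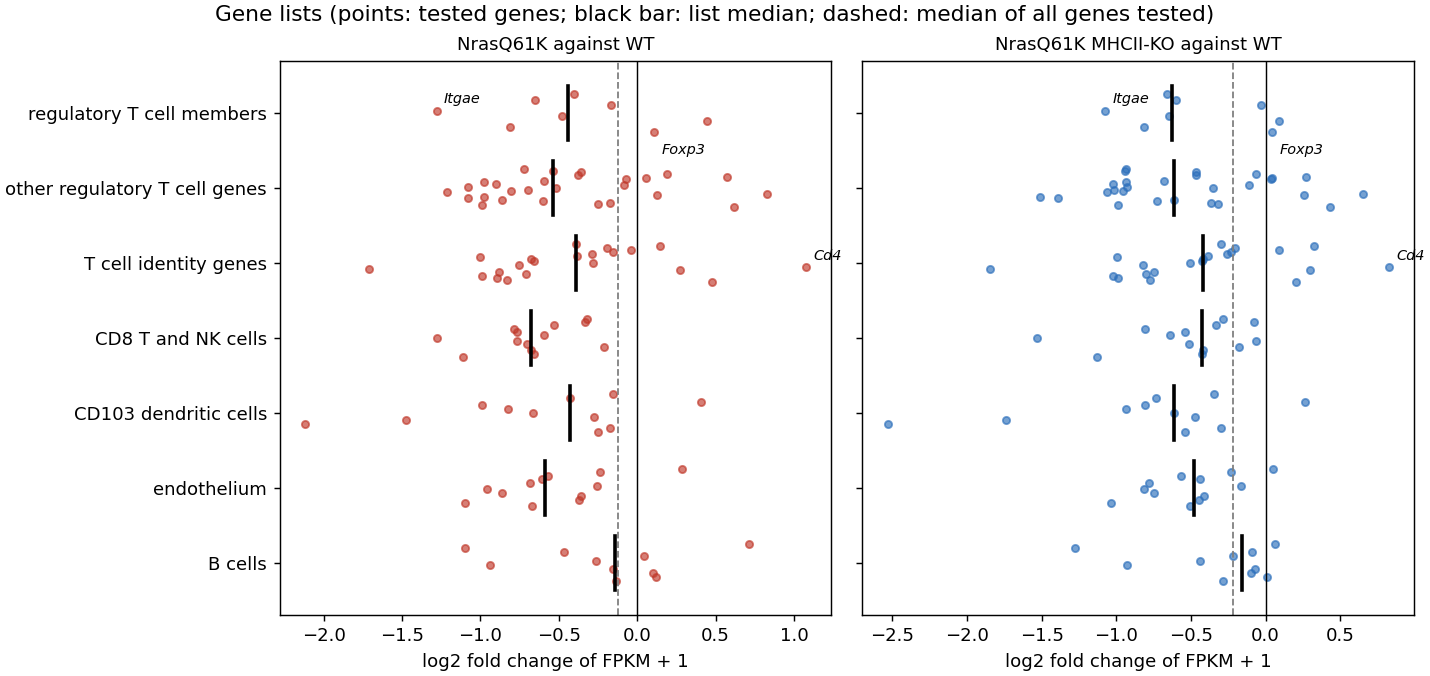
Log2 fold changes of FPKM + 1 (horizontal axis) of the tested genes of 7 lists (rows, points in alphabetical order from bottom to top within a row) in Tyr-NrasQ61K and MHCII-KO nodes against WT, with black bars for list medians and dashed lines for the median of all genes tested (-0.12 and -0.22). The regulatory T cell, T cell, CD8 T and NK cell, dendritic cell and endothelial lists had medians below that of all genes in both panels, and Cd4 lay apart above the other T cell genes.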

How the data were processed

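RNA from lymph nodes of 9 mouse libraries, 3 per group, was sequenced on 1 flow cell, and the sample labels call the source nevus melanocytes. Per the labels, reads were processed with TopHat, Cufflinks and Cuffdiff on mm10; their versions and the annotation were not stated in the sources read. The deposited values are FPKM per library as the authors made them, so read numbers are unknown. Of 37820 lines, 1 repeated header and 18 entries with several values were left out, and 37801 were used. Nothing in the labels says that libraries are separate mice, so p-values measure the spread between these libraries, which may be technical.

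Genes with FPKM of at least 1 in at least 3 libraries (16587) were fitted as log2(FPKM + 1) by limma (version 3.58.1, R 4.3.3), using group means, a variance trend and no replicate term, and p-values were adjusted by Benjamini-Hochberg over all of them. The fit was repeated with Cd4 subtracted. It was tested on simulated data. Relative depth came from the step size of low FPKM. Coordinates were from GENCODE M21 (GRCm38) and upstream sequence from RefSeq. Python 3.11.15 with pandas 2.3.3 and matplotlib 3.10.9 was used elsewhere.

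The 9 genes and all gene lists were chosen with earlier results of these data known. Named were all 9 members and Cd4 and, of each other list, called genes, the up to 3 genes of smallest p in a comparison and up to 2 of highest mean FPKM; the 5 genes most like Foxp3, Ikzf2 and Itgae left out predicted genes. Alternatives covered scaling, pseudocount, filter, weights, replicate block, reference gene, samples fitted and leaving out libraries.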

Additional observations from a re-analysis of the deposited data

How the results depend on the processing

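Of 680 alternative values for single members over 5 comparisons, 585 kept their direction and side of the threshold, 30 lost a call, 29 gained one and 36 changed sign; the causes were not tested beyond what each setting's construction shows. In Tyr-NrasQ61K against WT the number of members called was 0 and became 1 (Itgae) with median-ratio scaling or quantile normalization, 5 with library weights and 2 (Ikzf2, Itgae) with the replicate block. In MHCII-KO against WT it was 0 and became 4 with weights and 2 with the block, where 44.7% and 4.68% of all genes were called. Leaving out single libraries gave 0 throughout. Over all genes these settings called 66, 47, 5076 and 894 genes in the first comparison against 39, and weights gave 30.6% of all genes. The calls of all genes in that comparison split 27 higher to 12 lower, 43 to 23 with median-ratio scaling, 26 to 21 with quantile normalization, 1007 to 4069 with weights and 267 to 627 with the block. Median-ratio scaling moved the median of all genes from -0.12 to 0.03 and from -0.22 to 0.02. Relative to Cd4, the count of 6 in Tyr-NrasQ61K against WT became 0 with Cd3e or the T cell list as reference. It was 5 to 7 without single libraries, where 33.3% to 80.4% of all genes were called. The count of 5 in MHCII-KO against WT became 0 with either reference, 8 with weights (74.5% of all genes called), 8 with the block (71.7%) and 3 without MHCII-KO replicate 3 (17.2%). It was 3 to 6 without single libraries, where 17.2% to 60.6% of all genes were called. The weights did not converge in the fit relative to Cd4, where Tyr-NrasQ61K replicate 1 got 385.

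The replicate numbers did not meet the criterion for pairing, every same-numbered correlation over 0.1, and no label says what a number shares. Correlations of deviations between same-numbered libraries ran from -0.04 to 0.33, with 3 of 9 over 0.1, against -0.27 to 0.16 for different numbers, with 1 of 18 over 0.1, and 11 of 18 times a library was closest to its own number in another group, a hint of shared deviations that the design does not explain. With the replicate block, Ikzf2 had an adjusted p of 0.0427 and 0.0442 and Itgae of 0.0387 and 0.0452 against WT by limma, where 5.39% and 4.68% of all genes were called. Relative to Cd4 with the block, Foxp3 was called by limma in both comparisons with WT (adjusted p = 0.0105 and 0.0275). So were 77.4% and 71.7% of all genes, so these calls are no result about Foxp3.

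Foxp3 changed sign with weights to -0.25 and -0.11 against WT and 0.14 between the transgenic groups, and to 0.041 there with quantile normalization; without single libraries it ran from -0.032 to 0.28, -0.093 to 0.22 and -0.20 to 0.036. Lrrc32 in MHCII-KO against WT became 0.18 with median-ratio scaling, 0.13 with quantile normalization and 0.061 without the 2 libraries that stood apart, and ran from -0.16 to 0.10 without single libraries. Ikzf4 there became -0.0048 without those 2 libraries and ran from -0.0048 to 0.14. Between MHCII-KO and Tyr-NrasQ61K, Ikzf2 became 0.072 with median-ratio scaling, 0.11 with quantile normalization and 0.0026 with a pseudocount of 0.1, Tnfrsf18 0.084 and Nrp1 -0.092 with weights, and Nrp1 -0.046 without the 2 libraries. Without single libraries Ikzf2 ran from -0.21 to 0.10, Itgae from -0.040 to 0.43, Il2ra from -0.36 to 0.083, Tnfrsf18 from -0.49 to 0.022 and Nrp1 from -0.17 to 0.22. Relative to the T cell list in place of Cd4, Foxp3 became 0.53 and 0.47, Ikzf4 0.87 and 0.52 and Lrrc32 0.26 and 0.40 in the 2 comparisons with WT, and Tnfrsf18 0.020 in Tyr-NrasQ61K; relative to Cd3e, Ikzf4 became 0.17 in Tyr-NrasQ61K. FPKM hide the read number, so the precision of genes near 1 FPKM, such as Foxp3, Ikzf4 and Il10, is unknown.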

Other observations

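Lists not described above gave these values, with no test of the list. B cell genes (10 tested) had medians of -0.14 and -0.16 against WT and 0 called. Of 12 tested macrophage genes 2 were called higher in each comparison with WT, Gpnmb (5.2 and 5.14) and Trem2 (3.43 and 3.41), and Timd4, a receptor of resident macrophages, was at -3.23 and -3.20 without a call (adjusted p = 0.152 and 0.201). Of 7 tested melanocyte genes Dct was called higher in Tyr-NrasQ61K (2.31, adjusted p = 0.0431) and not in MHCII-KO nodes (1.5, adjusted p = 0.201), and the difference was not called. Dct reached 1 FPKM only in transgenic libraries, so it was tested because it was high there. Innate lymphoid genes (5 tested) had medians of -1.06 and -1.05 with 0 called, plasmacytoid dendritic cell genes (6 tested) -0.43 and -0.53 with 0 called, endothelial genes (12 tested) -0.59 and -0.48 with 0 called, and platelet genes (3 tested), which bear on Lrrc32, -0.41 and -0.42 with 0 called.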
